A study of Mus musculus with 16 samples.

Results

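The response of mouse embryonic stem cells (ESCs) to 12 days without leukaemia inhibitory factor (LIF) was examined in 3 lines that carry no MBD3 coiled coil. The lines were chosen by construct name: Mbd3KO-Empty, Mbd3a deltaCC and Mbd3a deltaMBD&CC. They account for 6 of the 16 arrays of the series, 1 array per line without LIF and 1 with LIF. All 8 lines of the series derive from EBRTcH3, a male ESC line of strain 129SV. Of these, 7 are null for MBD3 and carry a stably introduced expression vector. Among the lines lacking a coiled coil, Empty carries the vector alone, deltaCC carries MBD3a without its coiled coil, and deltaMBD&CC carries MBD3a without both the methyl-CpG-binding domain (MBD) and the coiled coil. The 5 lines retaining a coiled coil were EBRTcH3 itself, with endogenous MBD3, and the null cells carrying MBD3a, MBD3b, MBD3c or MBD3a deltaMBD. The with-LIF cultures were kept in conventional ESC medium with LIF. The labels name neither a second culture of a line nor the number of clones behind one, so lines serve as replicates. Errors and p-values rest on the spread between lines, pooled over all 8 lines and not taken from the 3 lacking lines alone.

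LIF binds a receptor of LIFR and gp130, which activates JAK kinases and the transcription factor STAT3. In mouse ESCs, STAT3 raises transcription factors of the naive state such as Klf4 and Tfcp2l1, and it raises Socs3, which feeds back on the receptor. MBD3 is a subunit of NuRD, a nucleosome remodelling and histone deacetylase complex. ESCs without Mbd3 are known to keep self-renewing for some time after LIF is removed and to commit poorly to differentiation.

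Labels and general quality were checked first. Mbd3 was 7.45 log2 without LIF and 7.00 with LIF in Empty, 9.02 and 9.12 in deltaCC, and 8.45 and 8.48 in deltaMBD&CC. Its response, the log2 signal without LIF minus that with LIF in the same line, was 0.11 ± 0.15 (SE, n = 3 lines, adjusted p = 0.833). All 8 ESC markers, among them Pou5f1, Sox2 and Nanog, exceeded, on all 6 arrays, the 40th percentile of array signal. Their mean signal was 10.96 to 11.09 log2 without LIF and 11.08 to 11.16 with LIF. The summed signal of 5 trophoblast markers was 34.65 to 35.50 without LIF and 31.17 to 32.48 with LIF, while 5 primitive endoderm markers summed to 28.31 to 28.42 and 28.54 to 29.47. Of 11 fibroblast feeder markers 3 lay below that percentile on all 6 arrays, and 0 of the 9 tested passed in limma (1 at an unadjusted p under 0.05). In cultures of mixed cells, fewer cells of a type and less RNA per cell cannot be told apart. Sample titles fall into 2 runs of numbers, with Empty in the first run and both construct lines in the second, and both arrays of a line lie in the same run.

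Among genes that fell without LIF in the lacking lines were 8 of 19 tested LIF and STAT3 targets, 8 of 22 ATF4 and CHOP targets and 7 of 20 amino acid transporter genes. Among those that rose were Id2, the placental gene Sfmbt2 with 30 of 50 tested microRNA genes inside it (13 of 30 distinct value profiles), and 7 of 19 smooth muscle and actin genes. Of 22872 genes tested, 670 passed at an adjusted p under 0.05 (2.93% of tested genes), 391 higher (1.71%) and 279 lower (1.22%). At least 2-fold changes were seen in 151 of these, 101 higher and 50 lower. All 670 had the same sign in the 3 lines, against 34.8% of all tested genes. Near the 40th percentile of array signal (4.24 to 4.38 log2), used here as a floor, a level is not measured well: 31 of the genes called higher lay at or below it on at least 1 of the 3 arrays with LIF, and 17 of those called lower on at least 1 array without LIF. In 656 the 3 values without LIF did not overlap the 3 with LIF, against 19.4% of tested genes. The shared sign and this separation largely follow from the test that called the genes, so they are no further evidence of a change. In the retaining lines 8181 genes passed (35.8%). The same direction was called in both classes for 432 genes, which are 64.5% of the calls in the lacking lines and 5.28% of those in the retaining lines. Of the 670 genes, 47 passed in opposite directions in the classes, 31 lower in the lacking lines and higher in the retaining lines and 16 the other way. The remaining 191 did not pass in the retaining lines. The trophoblast markers above summed higher without LIF than with it in these lines, and their part in the other changes was not tested.

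The responses of the classes were then compared directly. The difference, lacking minus retaining, passed for 2759 genes (12.1% of tested genes). Among the 670 genes it passed for 267: in 94 the change in the lacking lines was smaller with the same sign, in 77 larger with the same sign, and in 96 the estimates had opposite signs. It did not pass for 403. Seen from the other side, 1179 genes passed with at least a 2-fold change in the retaining lines. The ratio of the lacking to the retaining log2 response had a median of 0.20 over them. The genes were chosen for a large retaining response, which lowers this ratio, so it is a description only. Of the 1179, 650 moved the same way in all 3 lacking lines and 172 passed there in that direction. Over all tested genes, 34.8% had the same sign in the 3 lines and 2.93% passed there, in either direction.

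Leaving out 1 line of the 3 lowered the count of 670 to 114 without Empty, 266 without deltaCC and 280 without deltaMBD&CC. It was 1039 when MBD3a deltaMBD, a retaining line, was left out. Empty is the only lacking line of the first title run, where 84 genes passed, and in the second run, with 3 lines and 1 residual degree of freedom, 0 passed (2472 at an unadjusted p under 0.05). The count of the first run rests on Empty alone, with a spread taken from the retaining lines of that run. The retaining lines split into 4870 higher and 3311 lower, but 3711 and 5138 when arrays were centred on their medians.

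**Figure D1:**
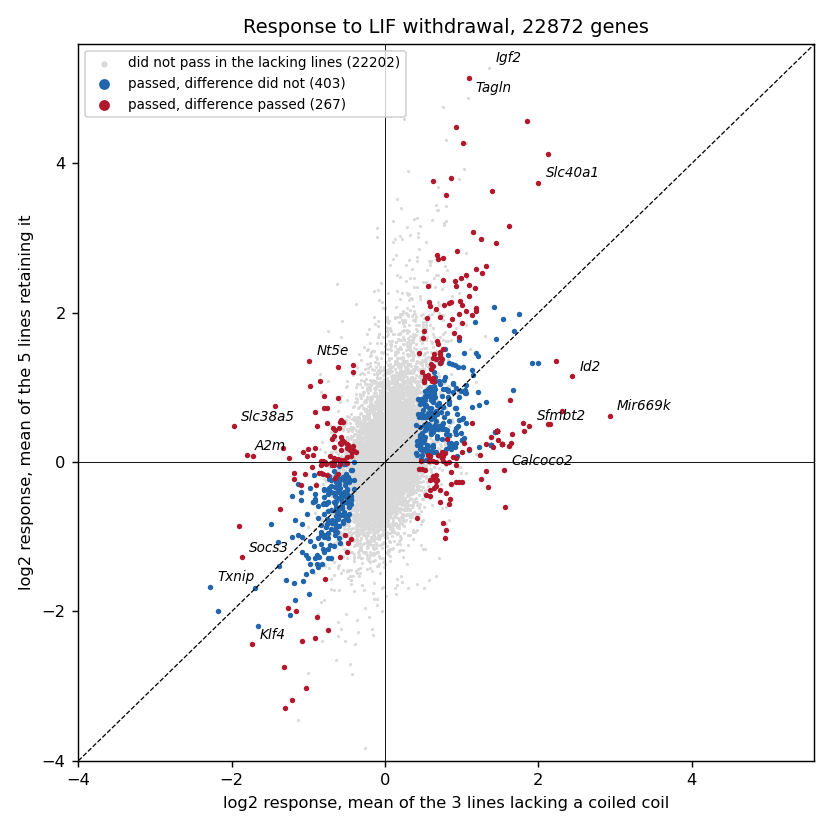
Mean log2 response to LIF withdrawal of each tested gene in the 3 lines lacking a coiled coil (horizontal) against the 5 lines retaining it (vertical). Blue points passed in the lacking lines without a difference between classes that passed (403 genes), red points passed with one (267 genes), and the dashed line marks equal responses.

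Of 19 tested targets of LIF and STAT3, 8 fell, 0 rose and 11 did not pass. The list had a median response of -0.40 log2, against 0.00 over all tested genes, and 6, 7 and 4 of the 19 were above 0 in Empty, deltaCC and deltaMBD&CC. By line, the median over all tested genes was 0.07, 0.00 and -0.07 in that order. Socs3, the feedback inhibitor, was at 6.52, 6.80 and 6.33 log2 without LIF in Empty, deltaCC and deltaMBD&CC, against 8.44, 8.32 and 8.51 with LIF. The values of the conditions were far apart in every line, a fall of 3.66-fold (-1.87 ± 0.13, adjusted p = 0.000104). Klf4, a naive pluripotency factor, was at 8.62, 8.77 and 8.50 without LIF, against 10.51, 10.21 and 10.37 with LIF (-1.73 ± 0.13, adjusted p = 0.000113). Bcl3, an IκB-family coactivator, was at 7.19, 7.22 and 7.00 without LIF, against 8.51, 8.82 and 8.55 with LIF (-1.49 ± 0.19, adjusted p = 0.00321). Stat3, itself in the receptor and JAK-STAT list where 2 of 22 genes fell, dropped to 8.47, 8.75 and 8.63 without LIF, against 9.86, 9.70 and 9.52 with LIF.

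The fall of these targets was as large as with a coiled coil for some members and smaller for others. Socs3 fell further in the lacking lines (-1.87) than in the retaining lines (-1.27, adjusted p of the difference = 0.0424). Klf4, Tbx3 and Tfcp2l1 fell less: -1.73 against -2.44, -1.26 against -1.95, and -1.16 against -2.00 (adjusted p of the differences 0.0179, 0.0418 and 0.0368). Stat3 fell by 1.08, and its difference from the retaining lines did not pass (-0.08, interval -0.40 to 0.25, adjusted p = 0.795). Klf5, the cell adhesion gene Icam1 and the transcription factor gene Cebpb also fell, by 0.87, 0.93 and 0.93. Without LIF, Lifr, the receptor subunit, and the kinase gene Pim3 gave responses of -0.44 and -0.40 and did not pass. Without Empty, calls were lost for Tfcp2l1, Klf5, Icam1 and Cebpb (adjusted p 0.0785, 0.0909, 0.165 and 0.278). Without deltaMBD&CC they were lost for Tfcp2l1, Icam1 and Cebpb (0.0589, 0.149 and 0.248), and Cebpb was also lost in 4 of 5 fits that left out a retaining line (up to 0.0668). The class differences of Socs3, Tbx3 and Tfcp2l1 were lost in most such fits (up to 0.185, 0.142 and 0.15), that of Klf4 without deltaCC (0.0977), and that of Socs3 also under quantile normalization and median centring (0.0585 and 0.0654).

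**Figure D2:**
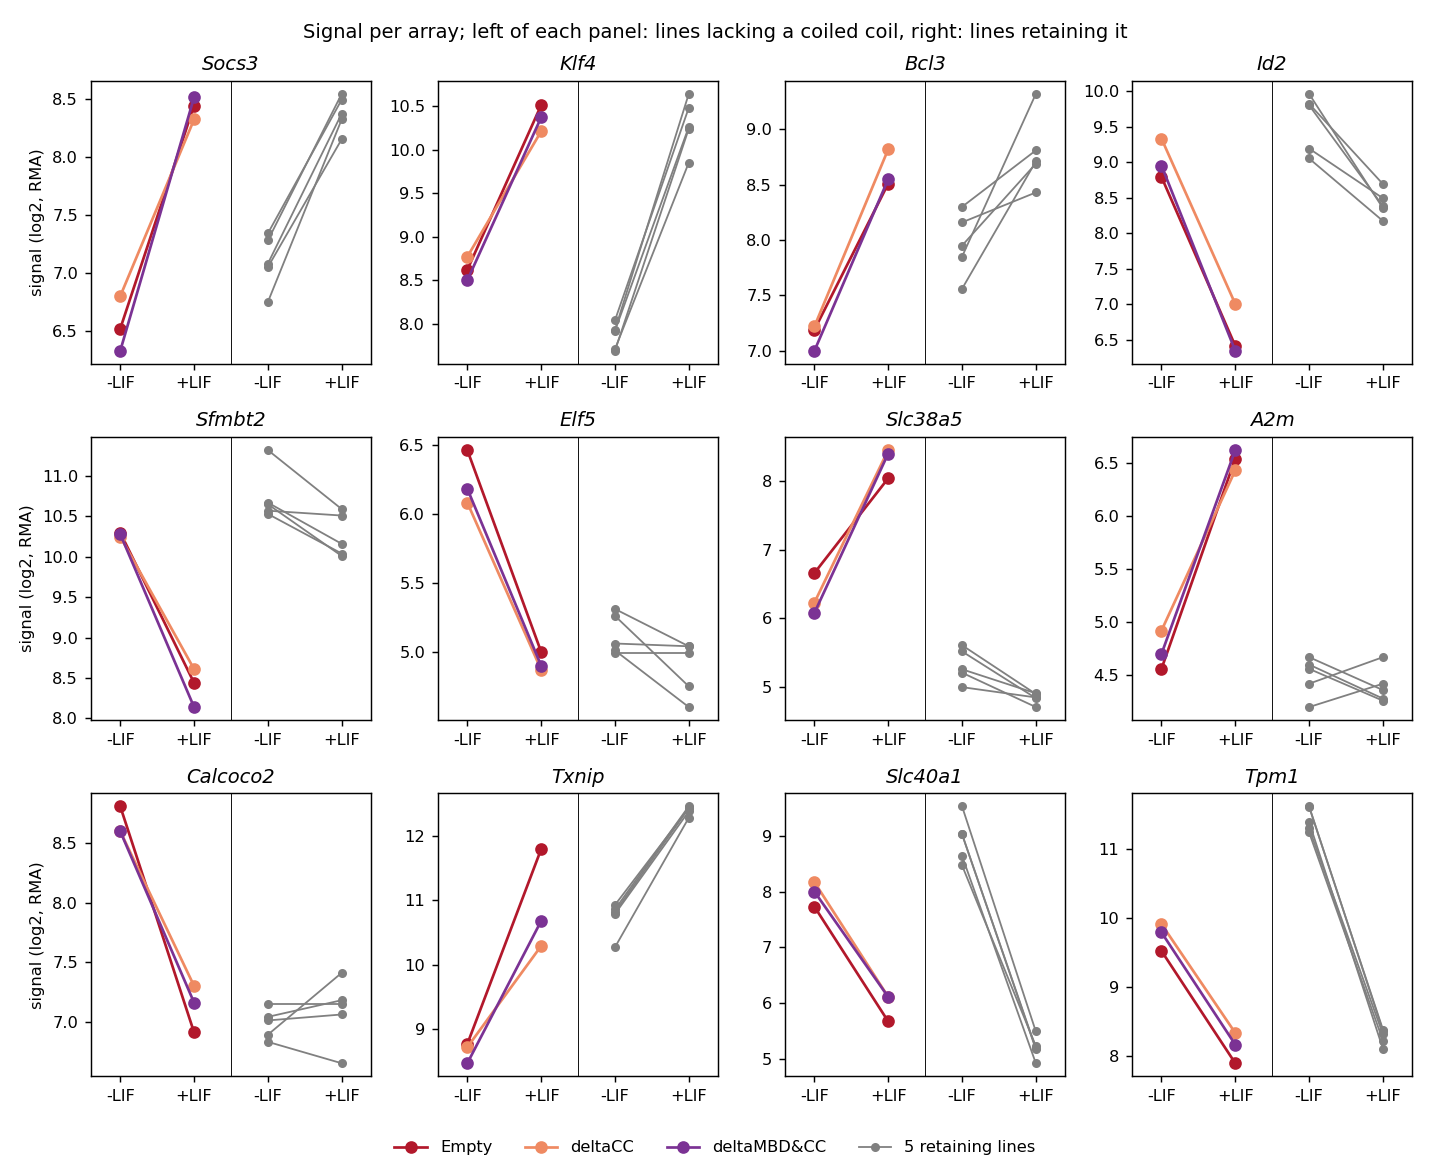
Log2 RMA signal of 12 genes on each array, without LIF left of with LIF; coloured points are the 3 lines lacking a coiled coil and grey points the 5 lines retaining it, with the arrays of a line joined. Socs3, Klf4 and Bcl3 fell in every line, whereas Slc38a5 and A2m were highest in the lacking lines with LIF.

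Promoters of the genes that fell were searched for STAT palindromes in the 250 bases before the transcription start, on both strands, in RefSeq windows of GRCm38.p6. TTCCNGGAA was in 300 of 32851 windows (0.913%) and the looser TTCNNNGAA, which contains it, in 2306 (7.02%). Among 53 windows of genes that fell at least 2-fold, the counts were 2 (3.77%) and 5 (9.43%). Of the 6 windows of LIF and STAT3 targets that fell, 1 held the first motif, that of Icam1, and 2 the second, those of Icam1 and Socs3. The windows of Pros1, Icam1 and Socs3 are shown because they hold a match beside a measured fall, with the match in capitals, 5′ to 3′ on the strand of the gene. Pros1 lies at chr16:62854057-62854306 (+), Icam1 at chr9:21015690-21015939 (+) and Socs3 at chr11:117969367-117969616 (-). A match describes the letters and was not tested as a binding site.
Pros1: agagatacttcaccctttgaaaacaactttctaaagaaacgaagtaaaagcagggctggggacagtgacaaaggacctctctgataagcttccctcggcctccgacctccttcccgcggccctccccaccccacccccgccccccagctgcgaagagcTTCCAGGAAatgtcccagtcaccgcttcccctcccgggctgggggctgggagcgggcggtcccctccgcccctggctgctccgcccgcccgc
Icam1: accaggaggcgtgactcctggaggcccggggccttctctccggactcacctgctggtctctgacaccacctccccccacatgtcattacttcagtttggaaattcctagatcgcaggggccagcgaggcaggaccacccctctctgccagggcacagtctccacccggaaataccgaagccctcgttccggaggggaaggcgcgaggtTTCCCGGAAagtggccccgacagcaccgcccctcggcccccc
Socs3: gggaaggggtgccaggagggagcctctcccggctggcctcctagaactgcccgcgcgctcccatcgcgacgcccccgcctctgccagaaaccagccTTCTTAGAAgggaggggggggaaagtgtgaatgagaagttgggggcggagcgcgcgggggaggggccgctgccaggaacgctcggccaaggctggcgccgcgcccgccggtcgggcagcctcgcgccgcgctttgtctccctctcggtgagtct

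Pros1, which encodes the anticoagulant protein S, was among the largest falls. It was at 6.32, 6.79 and 6.77 log2 without LIF in Empty, deltaCC and deltaMBD&CC, against 8.93, 8.39 and 9.09 with LIF. The fall was 4.52-fold (-2.18 ± 0.16, adjusted p = 0.000113), and the retaining lines gave -2.00 (adjusted p of the difference = 0.656, interval of the difference -0.63 to 0.28).

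Most other pluripotency genes did not pass. Of 22 naive genes 5 fell, namely Klf4, Tbx3, Tfcp2l1, Klf5 and the junctional adhesion gene Jam2 (-0.99), 4 of them also on the LIF target list. Across the lines with a coiled coil 19 fell, and the difference passed for 14 of the 22, in 13 with the higher response, not level, in the lacking lines. Nr0b1, an orphan nuclear receptor gene of the naive network, gave -0.16 ± 0.22 in the lacking lines and -2.32 ± 0.17 in the retaining lines. Esrrb gave -0.45 and -1.63, and Nanog -0.32 and -1.16, with adjusted p of the 3 differences at 0.000785, 0.0035 and 0.0119 (0.0623 for Nanog without deltaCC). With LIF, Nr0b1 was already lower in Empty, deltaCC and deltaMBD&CC, at 10.51, 10.34 and 10.57 log2, against 11.52 to 12.18 in the retaining lines. Without LIF it was at 10.13, 10.43 and 10.37, against 9.00 to 10.08. Mean levels with LIF, lacking against retaining, were 11.06 and 11.22 for Esrrb and 11.18 and 11.69 for Nanog. Pou5f1 and Sox2, the core factors, gave -0.19 and -0.20 and did not pass. Of 16 general pluripotency genes 1 fell, the Nodal co-receptor gene Tdgf1 (-0.74 ± 0.13). Leaving out any 1 of the 3 lines ended the calls of Jam2 (adjusted p 0.063 to 0.146) and Tdgf1 (0.0737 to 0.0832).

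Part of the formative programme rose. Of 19 tested genes of the formative and primed epiblast 4 rose and 1 fell, with a median of 0.35 log2, and 12 rose in the retaining lines. Fgf5, the standard epiblast marker, was at 7.70, 8.08 and 7.99 log2 without LIF, against 6.49, 6.58 and 6.35 with LIF (1.45 ± 0.21, adjusted p = 0.00659). Dnmt3b, the de novo DNA methyltransferase gene, was at 9.69, 10.06 and 9.71 without LIF, against 8.65, 9.01 and 8.61 with LIF (1.06 ± 0.13). Lef1, a Wnt effector, rose by 1.31 and Grhl2, a regulator of epithelial enhancers, by 0.77. Fgf5, Lef1 and Dnmt3b rose less than in the retaining lines, where the responses were 2.94, 2.63 and 2.03 (adjusted p of the differences 0.00553, 0.00395 and 0.00388). Zic2 fell by 0.87, and Otx2, which opens the formative state, gave -0.38 and did not pass. Tet2, a methylcytosine dioxygenase gene that falls as cells leave the naive state, fell by 1.24. Without deltaCC or deltaMBD&CC the call of Grhl2 was lost (adjusted p 0.0746 and 0.0684), without Empty that of Zic2 (0.0564), and without Empty or deltaCC that of Tet2 (0.0787 and 0.0574).

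Of the inhibitor-of-DNA-binding genes, Id1, Id2 and Id4 rose and Id3 did not pass (0.26 ± 0.24, adjusted p = 0.7). Id2, the largest rise among protein-coding genes named by the rule, was at 8.79, 9.33 and 8.95 log2 without LIF in Empty, deltaCC and deltaMBD&CC, against 6.41, 7.00 and 6.34 with LIF. The rise was 5.43-fold (2.44 ± 0.16, adjusted p = 6.92e-05) and larger than in the retaining lines (1.15, adjusted p of the difference = 0.00244). With a coiled coil Id2 already lay between 8.17 and 8.69 with LIF, above all 3 lacking lines in that condition, and between 9.05 and 9.96 without LIF. Id1 rose by 0.91, Id4 by 0.71 and the Notch and BMP target Hey1 by 0.47. Id4 moved the other way in the retaining lines (-0.54, adjusted p of the difference = 0.0012). In the same list of 15 BMP targets and Id genes 2 fell, the inhibitory Smad gene Smad7 (-0.54) and the ligand gene Bmp4 (-0.71). Of 15 genes of FGF and ERK feedback, the receptor gene Fgfr2 rose (1.15 ± 0.15) and the inhibitor gene Spry2 fell (-0.94 ± 0.15). Calls other than those of Id2 and Fgfr2 were lost without at least 1 line: without Empty for Id1, Id4, Hey1, Smad7, Bmp4 and Spry2 (adjusted p 0.0899 to 0.249), without deltaCC for Id4, Hey1, Bmp4 and Spry2 (0.0517 to 0.156), and without deltaMBD&CC for Id1, Id4, Hey1, Smad7 and Bmp4 (0.087 to 0.168). Hey1 was also lost in 3 fits without a retaining line (up to 0.0678).

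Trophoblast genes rose in part. Of 24 tested genes 7 rose and 0 fell: Id2, Sfmbt2, Rhox5, Elf5, Fgfr2, Krt8 and Krt19. The list had a median of 0.65 log2, and 23, 22 and 21 of its members were above 0 in Empty, deltaCC and deltaMBD&CC. All tested genes had medians of 0.07, 0.00 and -0.07 in these lines. Sfmbt2, an imprinted Polycomb-group gene needed in the placenta, was at 10.30, 10.25 and 10.28 log2 without LIF, against 8.44, 8.61 and 8.14 with LIF (1.88 ± 0.14, adjusted p = 0.000113). The retaining lines were at 10.53 to 11.32 without LIF and 10.01 to 10.59 with LIF, so the 3 lacking lines stood lower in both conditions and the larger rise was theirs (adjusted p of the difference = 0.000741). Elf5, a trophoblast stem cell factor, was at 6.46, 6.08 and 6.18 without LIF, against 5.00, 4.87 and 4.90 with LIF (1.32 ± 0.12, adjusted p = 0.000396). With a coiled coil its response was 0.24 (adjusted p of the difference = 0.0014).

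Other trophoblast genes behaved differently. Rhox5, an X-linked homeobox gene, rose by 1.80 ± 0.27 in the lacking lines and 0.53 in the retaining lines (adjusted p of the difference = 0.0337). The simple-epithelium keratins Krt8 and Krt19 rose by 1.02 and 0.86, well under the 4.28 and 3.81 of the retaining lines. Cdx2, a founding factor of the trophectoderm, gave 0.31 ± 0.27, and Hand1, a factor of giant cells, 0.66 ± 0.43, and neither passed. The retaining lines gave 2.71 and 3.45. Hand1 rose in each lacking line, by 0.78, 0.78 and 0.43 in Empty, deltaCC and deltaMBD&CC. The SD of its responses was 0.20 there and 1.21 in the retaining lines, and its SE rests on the pooled spread of all 8 lines. Calls were lost without Empty for Rhox5, Krt8 and Krt19 (adjusted p 0.076, 0.142 and 0.189), without deltaCC for Krt8 and Krt19 (0.153 and 0.167), and without deltaMBD&CC for Krt8 (0.0733). The class difference of Rhox5 was lost without any 1 of the 3 lines (0.0567 to 0.114) and without MBD3a or MBD3c (0.0609 and 0.0769).

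Some of the microRNA genes inside Sfmbt2, which were singled out after their values were seen, also rose. RefSeq places 71 microRNA genes of the miR-466, miR-467, miR-669 and miR-297 families within Sfmbt2, and 50 were tested through transcript clusters of chromosome 2. Of these 30 passed, all higher and with the same sign in the 3 lines. Near-identical copies share values on the array: 9 entries of Mir669a (Mir669a-4 and others), 5 of Mir466b and 5 of Mir467a were identical. Counted by distinct values, 13 of 30 passed, with responses from 1.00 to 2.93, and the difference from the retaining lines passed for 9 of the 13. Over the 30 distinct profiles the median response was 0.79 log2 in the lacking lines and 0.04 in the retaining lines. The 17 that did not pass ranged from 0.04 to 1.19. Of the 30 genes that passed, 19 lay at or below the 40th percentile on all 3 lacking arrays with LIF, so their exact rises are not measured.

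Mir669k had the largest estimated rise of the 22872 tested genes. It was at 7.94, 6.87 and 6.91 log2 without LIF in Empty, deltaCC and deltaMBD&CC, against 4.61, 4.26 and 4.07 with LIF, an estimate of 2.93 ± 0.27 log2 (adjusted p = 0.000396). With LIF it exceeded the 40th percentile on 1 of the 3 arrays, and with that percentile as the floor the rise was at least 7.00-fold. The retaining lines were at 6.69 to 7.80 without LIF and 6.17 to 7.02 with LIF, so it was the level with LIF that set the lacking lines apart. Mir669j and Mir467a-1, above the percentile on all 6 arrays, rose by 2.31 and 1.38. Mir669g, Mir669i, Mir466b-1 and Mir669a-4, below it on the 3 arrays with LIF, rose at least 2.24-fold, 2.29-fold, 1.58-fold and 1.38-fold. By place within the host gene, 0 of the 8 tested among the first 12 passed, and those that passed lay between places 14 and 70. Others between those places did not pass, among them Mir467e at 52, Mir466d at 60 and Mir669o at 64. After place 58 only Mir669i at 70 passed. No boundary by place was set beforehand or tested. The array reads whole-transcript RNA, so signal from the host intron, the hairpin and the mature microRNA cannot be told apart. Leaving out Empty ended the calls of Mir669g, Mir669i, Mir466b-1, Mir467a-1 and Mir669a-4 (adjusted p 0.0504 to 0.226). Without deltaCC they were lost for Mir466b-1 and Mir467a-1 (0.0564 and 0.0559), and without deltaMBD&CC for Mir467a-1 (0.164). The class difference of Mir669k was kept without any 1 line. Those of Mir669j, Mir669g, Mir466b-1 and Mir669a-4 were each lost without at least 1 line (up to 0.142).

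**Figure D3:**
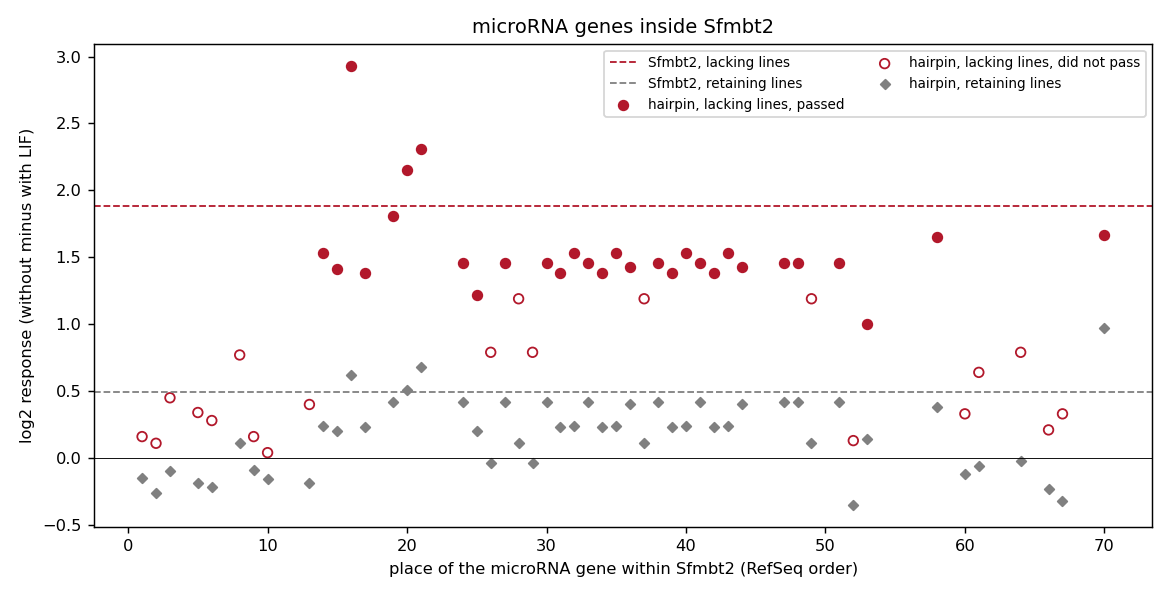
Mean log2 response of the 50 tested microRNA genes inside Sfmbt2 against their place in the gene in RefSeq order; red circles are the lacking lines (filled where passed), grey diamonds the retaining lines, and dashed lines the response of Sfmbt2 itself. Rises that passed lie between place 14 and place 70, among others that did not pass, and reach 2.93 at Mir669k.

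Beyond this cluster 2 microRNA genes passed, of 352 tested in all. Mir130a rose (0.92, adjusted p = 0.0327) and Mir708 fell (-0.74, adjusted p = 0.0146), with retaining responses of 0.05 and -1.01. Their main mature products are printed from RefSeq (GRCm38.p6), with the seed, bases 2 to 8, in capitals, to show that they share no seed.
mmu-miR-130a-3p: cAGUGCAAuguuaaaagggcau
mmu-miR-708-5p: aAGGAGCUuacaaucuagcuggg

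Of 19 tested genes of the smooth muscle and actin list 7 rose, 0 fell and 12 did not pass, against 19 higher in the retaining lines, with medians of 0.45 and 1.58 log2. The rise was smaller than in the retaining lines for 6 of the 7. Tpm1, a tropomyosin gene, was at 9.52, 9.91 and 9.79 without LIF, against 7.89, 8.33 and 8.16 with LIF (1.61 ± 0.10, adjusted p = 6.22e-05). Thbs1, which encodes the matrix protein thrombospondin, was at 7.83, 8.90 and 8.34 without LIF, against 6.31, 6.75 and 6.47 with LIF (1.85 ± 0.21). With a coiled coil the responses were 3.16 for Tpm1 and 4.57 for Thbs1 (adjusted p of the differences 7.37e-05 and 0.000203). Tagln, which encodes an actin-binding protein of smooth muscle, rose by 1.09 ± 0.16, against 5.15 ± 0.13 in the retaining lines (adjusted p of the difference = 5.26e-06). Smooth muscle actin (Acta2) rose by 0.92, the myosin light chain gene Myl9 by 0.69, and the YAP targets Ccn1 and Ccn2 by 0.99 and 0.93. Ccn2 was the exception: the retaining response was 0.99, and the difference did not pass (adjusted p = 0.865). Tests without Empty lost the calls of Tagln, Acta2 and Myl9 (adjusted p 0.0564, 0.235 and 0.141), without deltaCC for Acta2, Myl9, Ccn1 and Ccn2 (0.239, 0.206, 0.0539 and 0.0546), and without deltaMBD&CC for Myl9 and Ccn1 (0.0989 and 0.0728). Leaving out a retaining line ended the call of Acta2 in 3 fits and of Myl9 in 1 (up to 0.0662), and median centring that of Acta2 (0.0522). The class difference of Myl9 was lost without deltaMBD&CC (0.0638).

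Other large rises were in genes of varied function. Slc40a1, which encodes the iron exporter ferroportin, was at 7.73, 8.17 and 8.00 log2 without LIF, against 5.67, 6.11 and 6.11 with LIF, a 4.01-fold rise (2.00 ± 0.14, adjusted p = 8.3e-05). Trf, which encodes transferrin, fell by 0.94. The membrane carbonic anhydrase gene Car4 was at 7.62, 7.96 and 7.81 without LIF, against 5.46, 5.80 and 5.77 with LIF (2.12 ± 0.21). Both rises were smaller than with a coiled coil, where Slc40a1 gave 3.74 and Car4 4.13. Klhl13, an X-linked adaptor gene of a CUL3 ubiquitin ligase, was at 10.18, 10.22 and 10.10 without LIF, against 7.61, 8.16 and 8.03 with LIF, and its rise (2.23 ± 0.14) exceeded that of the retaining lines (1.35, adjusted p of the difference = 0.00879). The glutathione transferase gene Gstm2 (1.63 against 0.83) and the ectonucleotidase gene Enpp3 (1.61 against 0.21) also rose more. The class differences of Gstm2 and Enpp3 were lost without some lines (adjusted p up to 0.105 and 0.139). Dnah14, an axonemal dynein gene, was at 4.77, 4.38 and 4.84 without LIF, against 2.96, 3.14 and 2.97 with LIF. It exceeded the 40th percentile on only those 3 lacking arrays without LIF and so was tested only through them, and its rise was at least 1.26-fold. For Platr30, a long non-coding RNA gene (2.00), Slc23a1, which imports vitamin C (1.92), the acyltransferase gene Gpat3 (1.75) and the galectin gene Lgals9 (1.68) the difference did not pass.

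Some of these calls were lost with 1 line fewer. Omission of Empty ended the calls of Slc23a1, Gpat3, Lgals9, Dnah14, Enpp3 and Trf (adjusted p 0.064 to 0.183). Without deltaCC they were lost for Slc23a1, Lgals9, Enpp3 and Trf (0.0599 to 0.106), and without deltaMBD&CC for Dnah14, Enpp3 and Trf (0.0596 to 0.0681). The estimates kept their sign: over these fits Enpp3 gave 1.34 to 1.74, Slc23a1 1.62 to 2.13, Gpat3 1.68 to 1.91 and Lgals9 1.17 to 2.10, and Trf gave -0.87 without Empty and -0.94 without deltaCC.

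**Figure D4:**
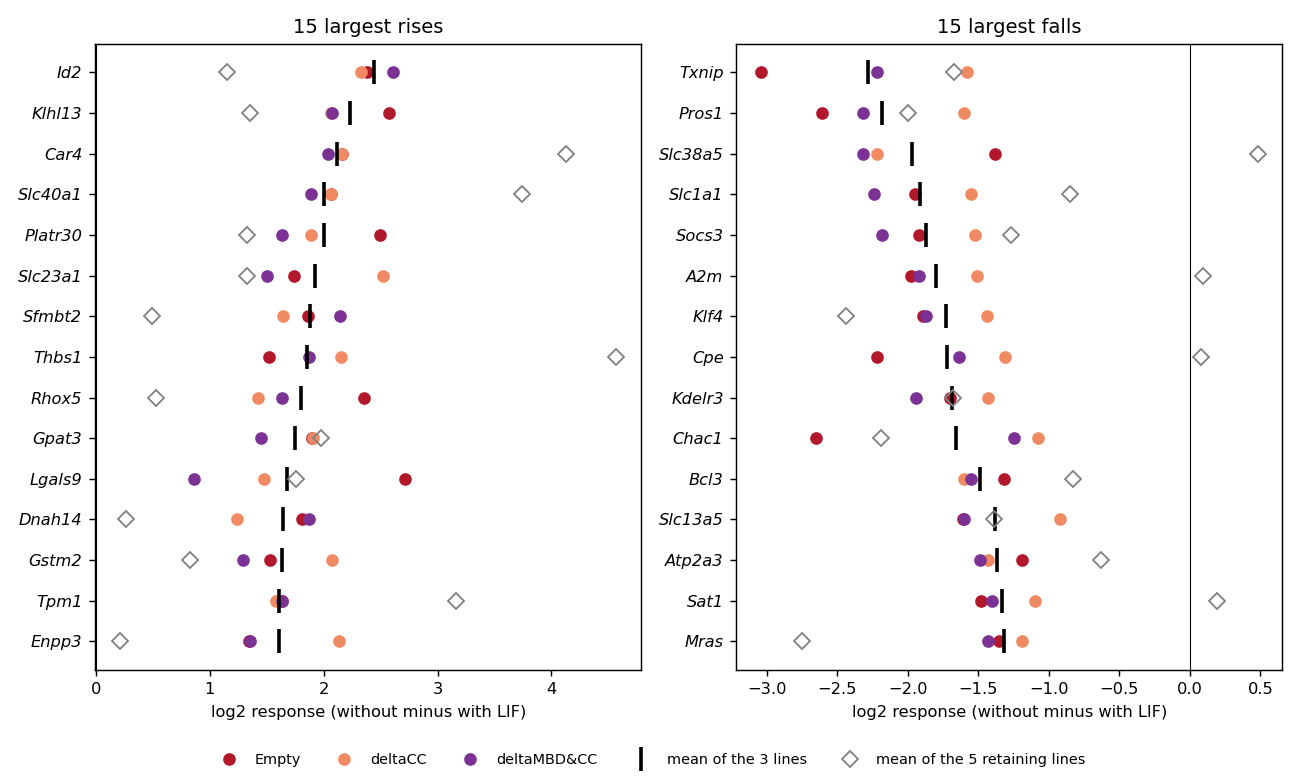
Log2 response of the 15 genes with the largest rises and the 15 with the largest falls named by the rule, with a point for each of the 3 lines lacking a coiled coil, a bar for their mean and an open diamond for the mean of the 5 lines retaining it. Slc38a5, Cpe and Sat1 have diamonds right of 0, from 0.08 to 0.48, beside falls of 1.33 to 1.97 in the lacking lines. A2m in the retaining lines, Slc38a5 in the retaining lines with LIF, and Dnah14 everywhere but in the lacking lines without LIF were near or below the 40th percentile of array signal.

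Of 22 targets of ATF4 and CHOP, transcription factors of the integrated stress response, 8 fell, 0 rose and 14 did not pass, with medians of -1.04, -0.19 and -0.79 log2 in Empty, deltaCC and deltaMBD&CC. With a coiled coil 17 fell. Counts of calls leave out members short of the threshold. In the lacking lines 20 of the 22 had an unadjusted p under 0.05 in limma, against 3603 of the 22872 tested genes. The same sign in the 3 lines was seen for 19, against 34.8% of tested genes. Estimates in the lacking lines ran from -1.66 to 0.61, and the class difference passed for 5 of the 22. Not every member moved alike in the classes: Fgf21 gave 0.61, without passing, and -0.57 in the retaining lines. Chac1, a glutathione-degrading enzyme gene, was at 6.62, 6.01 and 6.53 without LIF, against 9.27, 7.09 and 7.78 with LIF (-1.66 ± 0.28, adjusted p = 0.012). The level with LIF was highest in Empty, and so was the fall. Inhbe, an activin subunit gene, fell by 1.21, Nupr1 by 1.03, Ddit3, which encodes CHOP, by 1.03, the pseudokinase gene Trib3 by 0.81, Stc2 by 0.75 and the serine synthesis gene Psat1 by 0.73. The eighth was Cebpb, also a LIF target. Inhbe and Nupr1 fell further in the retaining lines (-3.18 and -3.02; adjusted p of the differences 0.00492 and 0.00208), where Inhbe without LIF exceeded the 40th percentile on 3 of 5 arrays. In the endoplasmic reticulum list of 18 genes 2 fell, Kdelr3, a receptor that retrieves folding proteins (-1.69 ± 0.14, adjusted p = 0.000222), and Herpud1 (-1.07).

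The stress calls were sensitive to the lines used. Fits without Empty lost the calls of the ATF4 and CHOP targets named, Chac1 included, and of Herpud1 (adjusted p 0.0639 to 0.286). Without deltaMBD&CC all but Chac1 were lost among these targets (0.0762 to 0.248), and without deltaCC Nupr1 and Psat1 (0.065 and 0.0744). Inhbe was lost in 4 fits without a retaining line and Nupr1 in 2 (up to 0.0689), and both under quantile normalization and median centring (0.0502 to 0.0603).

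Of 20 tested amino acid transporter genes 7 fell, 1 rose and 12 did not pass. The list as a whole had a median of -0.07 log2, against 0.00 over all tested genes, and 7, 11 and 8 of the 20 were above 0 in Empty, deltaCC and deltaMBD&CC, with a median of 0.10 in deltaCC. Line medians over all tested genes were 0.07, 0.00 and -0.07. Slc38a5, a glutamine and glycine transporter gene, was at 6.66, 6.23 and 6.08 log2 without LIF in Empty, deltaCC and deltaMBD&CC, against 8.04, 8.45 and 8.40 with LIF (-1.97 ± 0.17, adjusted p = 0.000338). In the retaining lines it was low in both conditions, 5.00 to 5.61 without LIF and 4.71 to 4.91 with LIF, and rose (0.48, adjusted p of the difference = 0.000123). Those levels with LIF lay close above the 40th percentile of array signal (4.24 to 4.38), so a fall as large as in the lacking lines could not have been seen. Slc1a1, a glutamate transporter gene, fell by 1.91 ± 0.22, against -0.85 in the retaining lines, and Slc1a4, a neutral amino acid transporter gene, by 1.07, against 0.13. Slc1a5, Slc6a9, Slc7a1 and Slc7a5 fell by 0.80, 0.91, 0.79 and 0.65, and their differences between classes did not pass. The differences of Slc1a1 and Slc1a4 were lost without some lines (adjusted p up to 0.148 and 0.0917), and that of Slc1a1 under median centring (0.0571). Slc6a15 rose by 0.84. The calls of all but Slc38a5 and Slc1a1 were lost without Empty (adjusted p 0.183 to 0.262), those of Slc7a1, Slc7a5 and Slc6a15 also without deltaCC (0.0717 to 0.148), and those of all but Slc38a5 and Slc1a1 without deltaMBD&CC (0.0583 to 0.212). Slc7a1, Slc7a5 and Slc6a15 were also lost in 2, 3 and 3 fits without a retaining line (up to 0.0648) and under median centring (0.0522 to 0.0702), and Slc7a5 also under quantile normalization (0.0561).

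Txnip, which restrains glucose uptake, had the largest fall of all tested genes. It was at 8.76, 8.71 and 8.46 log2 without LIF, against 11.80, 10.29 and 10.68 with LIF (-2.28 ± 0.21, adjusted p = 0.000396). The retaining lines were higher in both conditions, 10.27 to 10.93 without LIF and 12.29 to 12.47 with LIF, and their response was -1.67 (adjusted p of the difference = 0.172). Its relative Arrdc4, which responds to the same glucose-sensing factors, fell by 1.14, and the hexokinase gene Hk2 by 0.55. They were the 3 genes of 24 in the glycolysis and hypoxia list that fell, and 0 rose. Without Empty, calls were lost for Arrdc4 (adjusted p = 0.064) and Hk2 (0.124), and that of Hk2 also without deltaCC (0.12).

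Some genes that changed in the lacking lines had retaining responses near 0 or of the other sign. A2m, which encodes a secreted protease inhibitor, was at 4.56, 4.92 and 4.70 log2 without LIF, against 6.54, 6.43 and 6.62 with LIF (-1.80 ± 0.15, adjusted p = 0.000222). In the retaining lines it was at 4.20 to 4.67 in both conditions, about the 40th percentile of array signal, where a fall could not have been seen, so its responses are not compared. Cpe, a carboxypeptidase gene of the secretory granule, was at 5.62, 6.29 and 6.03 without LIF, against 7.84, 7.60 and 7.67 with LIF (-1.72 ± 0.16), and Sat1, which acetylates polyamines, at 7.41, 7.62 and 7.41, against 8.89, 8.72 and 8.81 (-1.33 ± 0.12). The retaining responses were 0.08 for Cpe and 0.19 for Sat1 (adjusted p of the differences 0.000369 and 0.000191). Calcoco2, an autophagy receptor gene, was at 8.81, 8.60 and 8.60 without LIF, against 6.91, 7.30 and 7.16 with LIF (1.55 ± 0.15, adjusted p = 0.000404), while the retaining lines gave -0.11. Gsta3, a glutathione transferase gene, was at 7.31, 7.28 and 7.61 without LIF, against 5.83, 6.23 and 6.13 with LIF (1.34 ± 0.12), and fell in the retaining lines (-0.33).

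Nt5e, Tgm3 and Phf19 were called in opposite directions in the classes. The ecto-5′-nucleotidase gene Nt5e fell by 0.99 and rose by 1.36 in the retaining lines, and the transglutaminase gene Tgm3 fell by 0.92 and rose by 0.67. Phf19, a Polycomb accessory gene picked here after its values were seen, was at 8.68, 8.70 and 8.55 log2 without LIF in Empty, deltaCC and deltaMBD&CC, against 7.97, 7.64 and 7.98 with LIF (0.78 ± 0.14). In the retaining lines it was at 6.17 to 6.87 without LIF and 7.44 to 7.65 with LIF (-1.02, adjusted p of the difference = 0.000168). Nexmif, an X-linked neuronal gene, rose by 1.32, and its retaining response of -0.12 did not pass (adjusted p = 0.621). Krtdap, a keratinocyte gene, rose at least 2.71-fold, being above the 40th percentile on 1 of 3 lacking arrays with LIF, and on 3 of 10 retaining arrays. Calls of Nt5e, Tgm3 and Krtdap were lost without any 1 of the 3 lines (adjusted p 0.0531 to 0.164), and that of Phf19 without Empty or deltaCC (0.0811 and 0.099).

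How far these changes brought the classes together was counted. Among the 173 called genes whose response was larger than or opposite to that of the retaining lines, with a difference that passed, the gap between the class means was smaller without LIF in 109 (63%), against 52.8% of all tested genes. Its median size was 0.44 log2 without LIF and 0.71 with LIF. Among the 94 with a smaller change of the same sign it was smaller without LIF in 25 (26.6%), with medians of 0.95 and 0.45. The difference of the responses is by construction the change of this gap, so the counts describe levels and are no further evidence of a difference.

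Other groups moved in single members. Of 23 imprinted genes 2 rose, Sfmbt2 and Peg10 (0.92 ± 0.11), and 2 fell, Grb10 (-0.60) and Igf2r (-0.66). Igf2 gave 1.35 ± 0.32 (adjusted p = 0.0515), against 5.28 in the retaining lines (adjusted p of the difference = 0.000244). Among falls of more than 1.3 log2, the citrate transporter gene Slc13a5 gave -1.38 in the lacking lines and -1.39 in the retaining lines, the calcium pump gene Atp2a3 -1.37 and -0.63, and the RAS relative Mras -1.32 and -2.75 (the class difference of Atp2a3 was lost without deltaCC or deltaMBD&CC, adjusted p 0.0573 and 0.0587). Of 21 endoderm genes the laminin gene Lamb1 rose (0.44) and Lama1 fell (-0.98), and of 18 neuroectoderm genes Ncam1 fell (-0.95) besides Zic2. The cell cycle inhibitor gene Cdkn2a rose by 0.60, and the interferon-inducible gene Xaf1 fell by 1.08. The lists of gastrulation mesoderm (19 genes), sterol synthesis (15), NuRD subunits (16), p53 targets (18), the 2-cell-like state (11) and feeder genes (9) had 0 calls by limma in the lacking lines, with 1, 1, 5, 3, 1 and 1 members at an unadjusted p under 0.05. Without Empty, calls were lost for Grb10, Igf2r, Lama1, Lamb1, Ncam1, Cdkn2a and Xaf1 (adjusted p 0.0832 to 0.253), without deltaCC for the same 7 (0.0546 to 0.147), and without deltaMBD&CC for all of them but Igf2r and Lama1 (0.0531 to 0.236). Grb10 and Lamb1 were lost in 3 and 4 fits without a retaining line (up to 0.0686) and under median centring (0.0724 and 0.0768), and Lamb1 also under quantile normalization (0.0554).

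**Figure D5:**
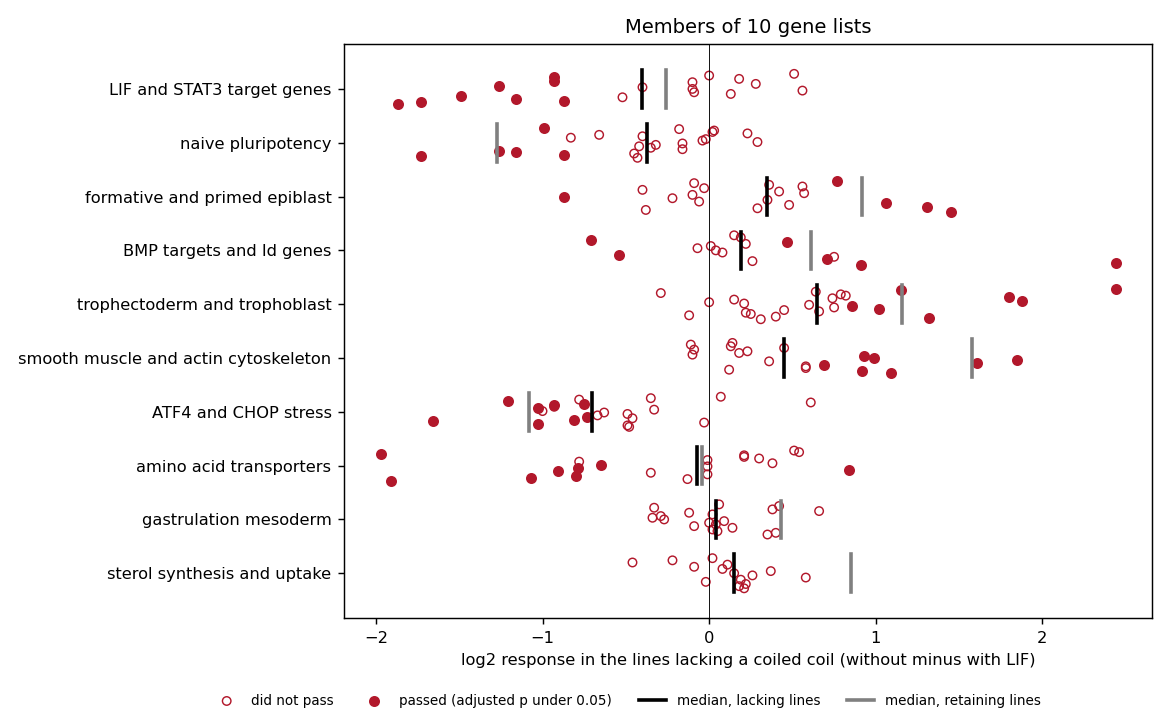
Log2 response in the lines lacking a coiled coil for the tested members of 10 gene lists, filled where the gene passed, with black and grey bars for the list medians in the lacking and retaining lines. LIF targets that passed lie left of 0, trophoblast and actin genes that passed lie right of 0, and the retaining median of naive pluripotency is -1.27 against -0.38.

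The 3 lines were also set against each other. At least 2-fold responses were seen for 445 genes in Empty (1.95%), 238 in deltaCC (1.04%) and 363 in deltaMBD&CC (1.59%), against 1140 to 1690 in the retaining lines. All 3 lines passed 2-fold together for 53 rises and 20 falls. Across genes, which are not independent replicates, the responses of pairs of lacking lines had Pearson correlations of 0.35 to 0.42. Empty had 0.36 to 0.47 with the retaining lines, deltaCC 0.23 to 0.29 and deltaMBD&CC 0.12 to 0.39, while pairs of retaining lines had 0.60 to 0.85. The 0.39 of deltaMBD&CC was with MBD3a deltaMBD, which shares its title run and its missing MBD, so these cannot be told apart. With the other retaining lines deltaMBD&CC had 0.12 to 0.19. Empty had 0.36 with MBD3a deltaMBD and 0.43 to 0.47 with the retaining lines of its own run.

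Empty minus the mean of the construct lines gave 0 calls by limma (0% of 22872), with 1440 genes at an unadjusted p under 0.05 and a smallest adjusted p of 0.271. That smallest value was for Prrg1, a membrane protein gene, with responses of 1.61 in Empty, -0.10 in deltaCC and -0.66 in deltaMBD&CC. Empty is 1 line with 1 array per condition, so its own spread was not measured and was assumed to be that of the other lines. The lack of calls therefore does not show that the 3 lines respond alike. Empty and the construct lines lie in different title runs, so line and run cannot be told apart. Some lists nonetheless moved differently by line, as a description without a test. Of the 11 genes of the 2-cell-like state, 11 were above 0 in Empty, 0 in deltaCC and 9 in deltaMBD&CC, and Zscan4f, a marker of that state, gave 3.43, -1.22 and 1.70, with 1 of its 3 levels with LIF above the 40th percentile. Of 15 sterol genes 13, 0 and 11 were above 0 in the same order. The medians over all tested genes also differed by line, at 0.07, 0.00 and -0.07 log2.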

How the data were processed

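Total RNA was labelled with a whole-transcript kit and hybridized to Affymetrix arrays, per the labels' protocols. The deposited values are log2 signals from RMA in affy, per the submitters' processing notes; the sources used here give neither versions nor the array's build. Array medians were 4.72 to 4.85. Probe sets with a single symbol were used, the brightest per gene, named through RefSeq (GRCm38.p6), and genes above the 40th percentile on at least 3 arrays were tested (22872 of 30102).

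limma 3.58.1 in R 4.3.3 was fitted to all 16 arrays with the line as a block, since the 2 arrays of a line share that line, and a LIF response for each class; p-values were adjusted by Benjamini-Hochberg over all tested genes. The script was tested on simulated data. A second fit separated Empty from the construct lines, with Empty, a lone line, assumed to vary like the others. Errors are SE. Intervals are at 95%.

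Genes named are Mbd3, the 15 largest rises and falls, up to 4 members per list, the 8 largest larger-in-lacking and the 8 largest changes without a class difference, 5 on each side for Empty minus constructs and for each line; predicted genes and microRNAs were to be counted only. Genes outside this rule, among them the microRNA genes of Sfmbt2, were picked with their values in view. Members and the 29 lists were chosen with earlier results of these data known. Alternatives varied the lines, block, filter, probe sets, scaling, trend, weights and title run.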

Additional observations from a re-analysis of the deposited data

Results flagged for a closer look

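Genes named in the report were marked where the difference of the response, lacking minus retaining lines, passed in limma (adjusted p under 0.05). Genes that rose in the lacking lines by less than the mean response of the retaining lines had these differences on the log2 scale: Fgf5 (-1.49), Lef1 (-1.32), Dnmt3b (-0.97), Krt8 (-3.26), Krt19 (-2.95), Thbs1 (-2.72), Tpm1 (-1.54), Tagln (-4.06), Acta2 (-3.58), Myl9 (-0.89), Ccn1 (-1.47), Slc40a1 (-1.74), Peg10 (-1.44), Car4 (-2.01) and Lamb1 (-1.02). For genes that fell, but by less, they were Klf4 (0.70), Tbx3 (0.69), Tfcp2l1 (0.84), Inhbe (1.97), Nupr1 (1.98) and Mras (1.42). Genes that rose by more than, or against, the retaining mean had Id2 (1.29), Id4 (1.25), Sfmbt2 (1.39), Rhox5 (1.27), Elf5 (1.07), Mir669k (2.31), Mir669j (1.63), Mir669g (1.64), Mir466b-1 (1.29), Mir669a-4 (1.04), Klhl13 (0.88), Dnah14 (1.38), Gstm2 (0.80), Gsta3 (1.67), Calcoco2 (1.65), Enpp3 (1.39), Krtdap (2.16), Nexmif (1.44) and Phf19 (1.80). For genes that fell by more than, or against, it they were Socs3 (-0.60), Smad7 (-0.57), Slc38a5 (-2.45), Slc1a1 (-1.07), Slc1a4 (-1.20), Cpe (-1.80), Atp2a3 (-0.74), Sat1 (-1.52), Tgm3 (-1.59) and Nt5e (-2.35). A2m (-1.90) was marked as well, but a fall in the retaining lines could not have been seen, so its classes are not compared. Dnah14 (1.38) was marked too, but it was tested only through the 3 lacking arrays without LIF, where it was high. Its classes are therefore not compared, and the mark was lost without Empty or deltaMBD&CC (adjusted p 0.0642 and 0.0962). Slc38a5 in the retaining lines with LIF lay close above the 40th percentile, where a fall as large as in the lacking lines could not have been seen. Signals at or below the 40th percentile on some or all arrays of a group enter the values of Dnah14, Krtdap, A2m, Inhbe, Mir669k, Mir669g, Mir466b-1 and Mir669a-4, whose exact size is not measured. Genes that did not pass in the lacking lines had Nr0b1 (2.16), Esrrb (1.18), Nanog (0.85), Lifr (1.14), Cdx2 (-2.41), Hand1 (-2.79) and Igf2 (-3.93). The differences of Smad7 and Lifr were lost without some lines (adjusted p up to 0.0721 and 0.152).

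Among the responses of the 5 retaining lines, 1 line stood apart from the other 4 by Dixon's test at the 95% level for some genes, which chance gives for about 1 in 20 groups. In EBRTcH3 these were Pou5f1 (-0.57), Dnmt3b (1.53), Id1 (1.00) and Zscan4f (0.02). In MBD3c these were Txnip (-2.02), Slc1a5 (-1.31) and Nt5e (1.95). In MBD3a deltaMBD these were Slc6a9 (-0.68) and Car4 (3.16). Values are log2 responses, and groups of 3 lines were not tested in this way.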

How the results depend on the processing

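The count in the lacking lines (670) was 114 to 1039 over the fits that left out 1 line each, 1612 with array weights, 1117 with the title run as a covariate, 84 within the first title run and 0 within the second (limma, 2472 at an unadjusted p under 0.05). The difference between classes (2759) gave 1353 to 3914 without 1 line, 5414 with array weights, 732 within the first run and 0 within the second (2730 unadjusted), and the retaining lines (8181) gave 0 within the second run (4284 unadjusted). The other alternatives moved these counts by less than 1.5 times, and Empty minus constructs stayed at 0 calls in every limma fit run (1440 at an unadjusted p under 0.05 in the fit reported). Fits within the first run and of Empty minus constructs take the spread of Empty, a lone line there, from other lines. Without the replicate block by line, 693 genes passed in the lacking lines (394 higher, 299 lower), and the pairing itself comes from the labels. The retaining lines split into 59.5% higher, but 47.4% after quantile normalization and 41.9% after median centring; the difference split into 34.5%, 46.1% and 47.9%. The median response of all genes shifted by -0.07 and -0.10 in the retaining lines under these scalings.

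Of 97 named genes called in the lacking lines, 36 kept their call whichever of the 3 lines was left out, 83 without the block, and 74 under all of the alternatives that keep every line of the class (3 genes fell outside the 60th percentile filter). The call was lost by 58 without Empty, 37 without deltaCC, 38 without deltaMBD&CC and 97 within the second run, which leaves 1 residual degree of freedom. None of the 97 changed sign in any alternative. Uncalled genes that did were Mbd3 (-0.07 to 0.21 without 1 lacking line) and Prrg1 (-0.38 to 0.76), at -0.07 and -0.38 within the second run. Of 58 class differences that passed among named genes, 39 were kept without any 1 line and under both scalings. The cause of these changes was not tested beyond the smaller number of arrays. The number of arrays, and signals near background, limit the precision.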
